A study of Mus musculus with 6 samples.

Results

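The comparison described here sets the open chromatin of mouse embryonic stem cells in the ground state against that of the same cells at the endpoint of an exit from it, 96 h after the ground-state medium was withdrawn. Merging the peaks of the 2iL and 96 h lists wherever they shared 1 bp or more gave 118254 regions, of the 131410 found when all 3 lists of the study are merged. A region in the 2iL list only is called lost, a region in the 96 h list only is called gained, and a region in both is called shared. There were 40778 lost, 27686 gained and 49790 shared regions.

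The assay was ATAC-seq, in which a transposase cuts accessible DNA and tags it for sequencing. E14, a blastocyst-derived mouse embryonic stem cell line, was grown on gelatin in N2B27, a serum-free medium. The 2iL group also received CHIR99021, an inhibitor of the kinase GSK3, PD0325901, an inhibitor of the kinase MEK, and the cytokine LIF, and in the other groups these 3 agents were taken away for 48 h or 96 h. Each group had 2 samples, A and B, but 1 peak list, so no value below has a replicate spread, no difference could be tested, and the bracketed 95% intervals (exact binomial) cover counting error only.

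In the ground state, LIF acts through STAT3, GSK3 inhibition relieves the repressor TCF7L1, and MEK inhibition blocks the FGF signal that drives exit. Naive factors such as Klf4, Esrrb, Tfcp2l1 and Nanog sustain each other on clusters of enhancers that lie far from gene starts. When the inhibitors go, cells pass through a formative state marked by Otx2, Pou3f1 and Fgf5, and in N2B27 many then take a neural path. ATAC-seq shows where DNA is open, which is not the same as whether a gene is transcribed, and a region near a gene need not act on it.

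Some changed regions covered annotated starts of genes, and these can be read directly in the sequence. The 250 bases before a start are given, from RefSeq on build GRCm38.p6, for 2 sets of 4 starts. In the first 4 these bases were touched by a peak in the 2iL list only, and in the last 4 in the 96 h list only. At Bdnf, in the last set, the peak did not reach the start. Capitals mark the letters of the motif searched: GGGTGTGG, the core bound by KLF factors, in the first 4, and AGGGGGC, part of the site of the insulator protein CTCF, in the last 4, each on either strand. Sequences without capitals hold no such letters in these 250 bases. The motif of the other set is not marked, and the Tcl1 and Lif sequences also hold the CTCF letters. The first 4 starts belong to Nr5a2 and Tcl1, members of the naive group, to Klf17, a KLF factor of early embryos, and to Lif itself. The Nr5a2 start is one inside the gene. The region nearest the outer start of Nr5a2, 2.15 kb away, was in both lists.
Nr5a2, chr1:136953631-136953880, minus strand: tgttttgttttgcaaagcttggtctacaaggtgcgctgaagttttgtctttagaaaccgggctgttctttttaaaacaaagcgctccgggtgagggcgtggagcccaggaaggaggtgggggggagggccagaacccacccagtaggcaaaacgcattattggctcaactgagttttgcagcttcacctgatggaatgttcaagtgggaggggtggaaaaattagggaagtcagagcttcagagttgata
Tcl1, chr12:105222738-105222987, minus strand: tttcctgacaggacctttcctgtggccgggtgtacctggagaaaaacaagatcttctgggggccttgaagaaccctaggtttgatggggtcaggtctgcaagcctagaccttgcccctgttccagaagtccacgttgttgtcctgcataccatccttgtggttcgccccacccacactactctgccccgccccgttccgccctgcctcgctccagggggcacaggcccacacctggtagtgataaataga
Klf17, chr4:117765667-117765916, minus strand: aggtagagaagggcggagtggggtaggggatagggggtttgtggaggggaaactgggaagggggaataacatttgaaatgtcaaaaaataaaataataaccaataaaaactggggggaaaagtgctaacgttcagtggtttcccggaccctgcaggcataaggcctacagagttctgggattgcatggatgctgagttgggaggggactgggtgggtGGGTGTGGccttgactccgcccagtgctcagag
Lif, chr11:4257318-4257567, plus strand: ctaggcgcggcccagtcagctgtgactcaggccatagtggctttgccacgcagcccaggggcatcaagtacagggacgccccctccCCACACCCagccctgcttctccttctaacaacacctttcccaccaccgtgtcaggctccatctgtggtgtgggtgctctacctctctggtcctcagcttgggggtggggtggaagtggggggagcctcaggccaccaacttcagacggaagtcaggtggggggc
The last 4 starts belong to Pax6, a neural transcription factor, to Fabp7, a fatty acid binding protein of radial glia, to Bdnf, a neurotrophin, and to Esrrb, a naive factor whose upstream start appeared only later.
Pax6, chr2:105668646-105668895, plus strand: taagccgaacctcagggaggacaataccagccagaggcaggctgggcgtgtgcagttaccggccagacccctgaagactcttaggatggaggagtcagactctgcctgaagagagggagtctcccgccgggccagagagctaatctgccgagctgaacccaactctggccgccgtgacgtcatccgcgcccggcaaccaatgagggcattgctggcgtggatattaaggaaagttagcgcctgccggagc
Fabp7, chr10:57784673-57784922, plus strand: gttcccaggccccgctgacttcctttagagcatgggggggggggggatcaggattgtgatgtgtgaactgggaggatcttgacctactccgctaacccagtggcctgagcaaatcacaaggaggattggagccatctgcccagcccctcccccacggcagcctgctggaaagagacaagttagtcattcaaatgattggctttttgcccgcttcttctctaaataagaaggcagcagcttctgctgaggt
Bdnf, chr2:109674450-109674699, plus strand: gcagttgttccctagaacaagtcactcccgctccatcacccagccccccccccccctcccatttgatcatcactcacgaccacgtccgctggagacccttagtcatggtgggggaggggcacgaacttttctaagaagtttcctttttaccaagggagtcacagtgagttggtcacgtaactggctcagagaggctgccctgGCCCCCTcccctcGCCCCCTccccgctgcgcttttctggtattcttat
Esrrb, chr12:86360867-86361116, plus strand: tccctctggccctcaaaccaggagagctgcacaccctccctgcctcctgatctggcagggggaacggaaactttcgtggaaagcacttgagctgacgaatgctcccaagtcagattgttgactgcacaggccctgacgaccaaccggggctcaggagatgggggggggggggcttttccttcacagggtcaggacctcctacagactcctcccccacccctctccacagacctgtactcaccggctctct

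The Klf17 start had the strongest signal of the first set, with a fold enrichment of 18.4 in 2iL, and was still listed at 48 h. Fold enrichment is the authors' linear ratio of the signal at a peak's summit to its background; folds of different lists stand side by side here as values and measure no change. The Klf17 window holds 1 KLF core, 33 bases before the start. At Lif the fold in 2iL was 4.49, and the KLF core lies 164 bases before the start on the other strand. Tcl1 had a fold of 7.85 and Nr5a2 one of 3.88. Of these, Tcl1 was still listed at 48 h, while Nr5a2 and Lif were not. In the second set, Fabp7 reached a fold of 12.5 at 96 h, Esrrb 7.94, Pax6 4.66 and Bdnf 2.88, and all 4 were already listed at 48 h. The Bdnf window holds 2 CTCF cores, 48 and 35 bases before the start. The 96 h peak touched only the far part of this window. It ended at chr2:109674472, short of both cores and of the start itself.

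Of the 2iL regions, 45.0% (44.7 to 45.3) were lost, 40778 of 90568. Of the 96 h regions, 35.7% (35.4 to 36.1) were gained, 27686 of 77476. The 2iL list was the longer, with 91228 intervals over 66.8 Mb against 78055 over 55.6 Mb. The background recovered from the fold and p values, an estimate of depth, was most often 14.2 tags in 2iL and 14.0 at 96 h. Its median was 24.5 tags in 2iL and 22.4 at 96 h. With both lists cut to their 78055 strongest intervals the lost and gained shares were each 40.0%. Lists of equal length give nearly equal shares by construction, so nothing about the difference between the shares follows from this. The weakest peak had a −log10 p of 8.53 in the 2iL list and 3.87 in the 96 h list, so the lists did not end at the same strength.

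Changed regions were weaker and narrower than shared ones. The median fold was 6.97 for lost and 6.60 for gained regions, against 9.98 in 2iL and 10.7 at 96 h for shared regions. Median widths were 607 bp for lost and 497 bp for gained regions, and 762 bp in 2iL and 749 bp at 96 h for shared ones. Width is not independent of class, because a wider interval more easily overlaps another by 1 bp and is then called shared. Lost regions covered 26.3 Mb, gained regions 15.1 Mb and shared regions 40.5 Mb. In steps of 25% of the 2iL list, from the weakest to the strongest by fold, the lost share went from 63.9% through 54.7% and 39.4% to 22.1%. The gained share of the 96 h list went from 58.1% through 46.0% and 26.6% to 12.2%. Fold is not independent of class either, because a peak near the weak end of a list can be missing from the other with little change in signal.

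Strength and position each went with presence in both lists. Among the strongest 25% of 2iL regions, 1.81% (1.51 to 2.15) of those within 1 kb of the start or end of a protein-coding gene were lost, 126 of 6975, against 31.1% (30.3 to 31.8) of those farther away, 4867 of 15667. In the strongest 25% at 96 h, 1.19% (0.95 to 1.47) of the regions within 1 kb were gained and 18.4% (17.7 to 19.1) of those beyond. Even among the weakest 10% of the 2iL list the lost share was 39.4% (36.5 to 42.2) within 1 kb and 67.2% (66.2 to 68.2) beyond. For the weakest 10% at 96 h the shares lay closer, at 54.8% (52.1 to 57.5) gained within 1 kb and 61.3% (60.1 to 62.5) beyond.

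**Figure D1:**
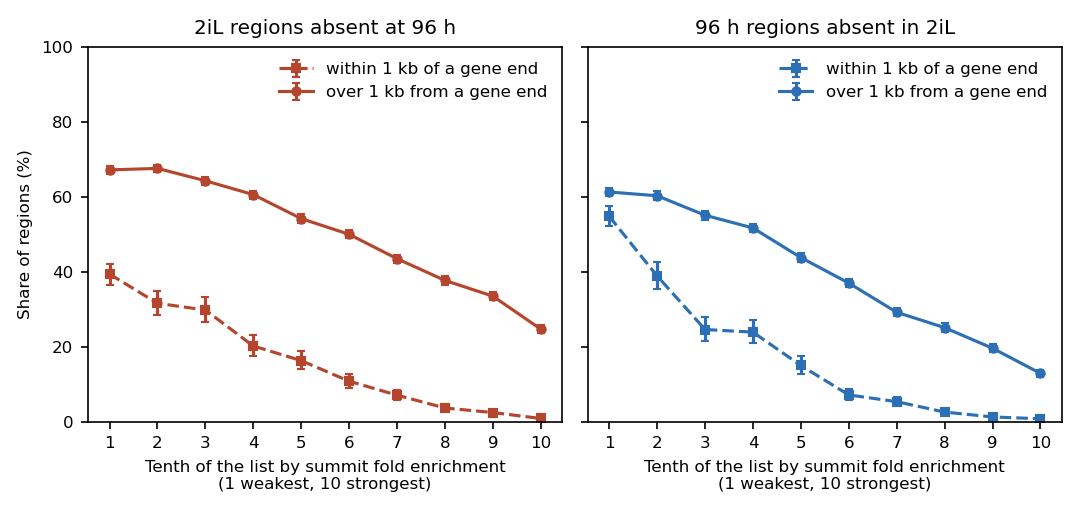
Share of regions absent from the other list (vertical axis, percent) by steps of 10% of each list in fold enrichment (horizontal axis, 1 weakest, 10 strongest), for 2iL regions lost (left) and 96 h regions gained (right), split at 1 kb from a gene start or end. Bars are exact 95% intervals; in the strongest 10% beyond 1 kb, 24.7% were lost and 12.9% gained, against 0.852% and 0.783% within 1 kb.

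The share lost rose with each step away from genes, from 11% within 1 kb through 45.4% at 1 to 10 kb, 53.2% at 10 to 50 kb and 55.9% at 50 to 100 kb to 59.1% beyond 100 kb. For gained regions the same steps gave 11.8%, 33.3%, 40.3%, 48.1% and 56.6%. The median distance to a gene start or end was 20.3 kb for lost, 24.7 kb for gained and 7.99 kb for shared regions. More than 1 kb inside a gene lay 51.9% of lost, 48.9% of gained and 39.7% of shared regions. A shared region lay within 5 kb of 25.8% of lost and 28.4% of gained regions.

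The list at 48 h, the time point between, held 32.9% (32.4 to 33.3) of the lost regions and 50.2% (49.6 to 50.8) of the gained ones. Strong regions of both classes were listed at 48 h more often than weak ones: 25.8% of the weakest 25% and 44.5% of the strongest 25% of lost regions, and 43.4% and 66.4% for gained regions. Within 1 kb of a gene start or end the shares were 41.7% (39.3 to 44.1) of lost and 64.3% (62.0 to 66.5) of gained regions. Of the shared regions, 94.9% were listed at 48 h. The 48 h list had 88810 intervals and a most frequent background of 15.2 tags, the highest of the 3. The part of this in the 48 h shares was not tested.

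**Figure D2:**
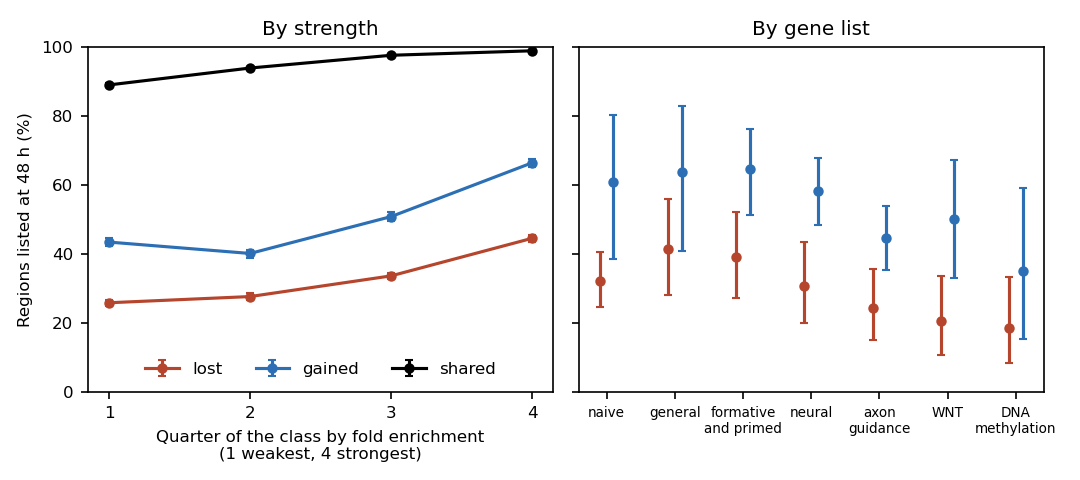
Share of lost, gained and shared regions that the 48 h list also held (vertical axis, percent), by steps of 25% in fold enrichment within each class (left) and, for lost and gained regions, at the genes of 7 groups (right). Points are shares with exact 95% intervals; in each step, the gained share lies above the lost share.

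Each region was placed with the protein-coding gene whose start or end was nearest its summit, up to 100 kb away. This placed 102706 regions, 86.9%, at 17965 genes. Among placed regions the background to be kept in mind is 43.2% lost, 34782 of 80425, and 32.8% gained, 22281 of 67924. Genes of 20 groups, given by textbook roles, were then read against this background. It is not matched for distance to a gene start or end, and both shares rose with that distance.

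Naive pluripotency genes, which hold the ground state together, had 146 lost, 98 shared and 23 gained regions. The lost share was 59.8% of their 2iL regions and the gained share 19.0% of their 96 h regions. More regions were lost than gained at 18 of the 20 genes and fewer at none. Of all 17965 genes, 45.5% lost more than they gained, 25.0% gained more and 5301 had as many lost as gained. These shares over all genes are not matched for the number of regions per gene. The lost naive regions were weak, with a median fold of 5.40 against 6.97 for all lost regions. Of the 146, 47 were still listed at 48 h, 32.2% (24.7 to 40.4), near the 32.9% of all lost regions. Some shared regions at these genes were narrower at 96 h: 23 of 98, 23.5% (15.5 to 33.1), were at least 1.5 times wider in 2iL than at 96 h, against 9.16% of all shared regions.

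**Figure D3:**
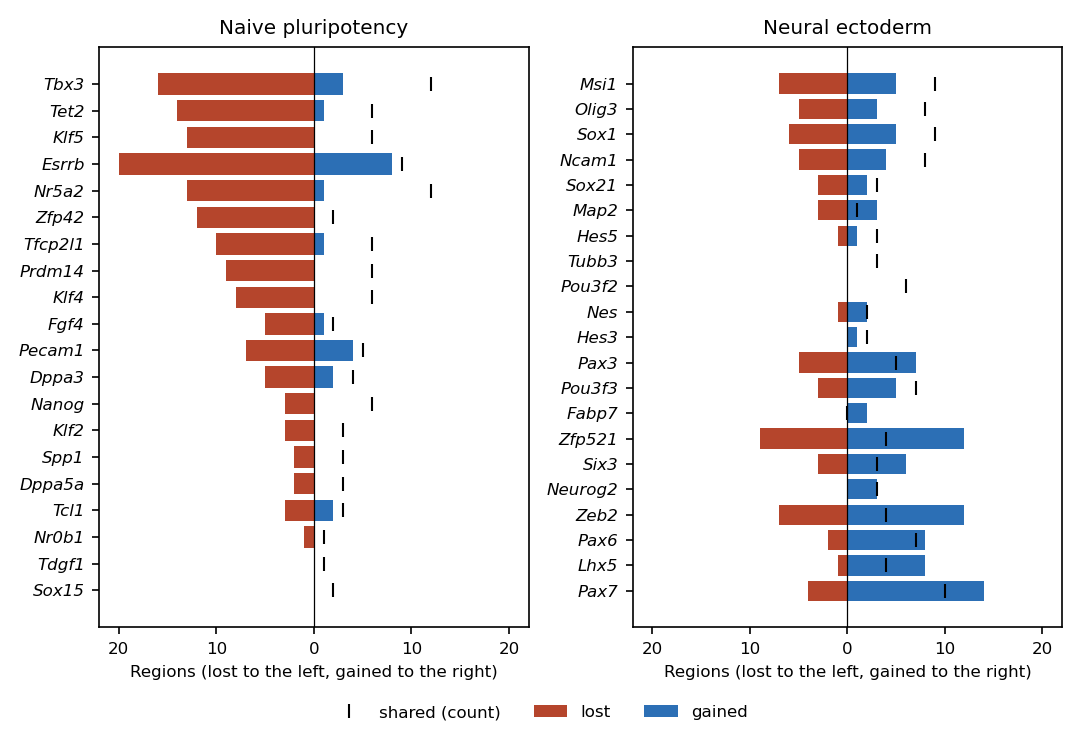
Number of lost regions (to the left), gained regions (to the right) and shared regions (black ticks, counted to the right) at the genes of the naive pluripotency and neural ectoderm groups, of which 1 neural gene is not drawn. In the naive group 18 of 20 genes lost more than they gained, and in the neural group gains outnumbered losses at 13 of 22.

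Klf4, a target of LIF and STAT3, kept its promoter and lost distant regions. The shared region 0.042 kb from its start had folds of 5.50 (2iL), 4.99 (48 h) and 4.60 (96 h). All 8 lost regions were absent by 48 h. The strongest of them lay 51.3 kb away at chr4:55583301-55584212, with a fold of 21.4 in 2iL, and another 86.6 kb away had a fold of 9.14. On the opposite side of the gene, the shared region 12.2 kb away had folds of 15, 19.0 and 26.1 at the 3 times, and one 46.5 kb away had 5.69, 11.4 and 16.0. The same locus thus held strong regions that left the list and strong regions that stayed.

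Zfp42, which encodes the stem cell marker REX1, had 12 lost and 2 shared regions and gained none. Its promoter region had folds of 18.7, 22.1 and 24.4 in 2iL, at 48 h and at 96 h. Around it the lost regions ranged from a fold of 3.64 to 20.2 in 2iL, with a median of 6.39. The strongest, 13.9 kb away at chr8:43320611-43321411, had 20.2 in 2iL and 9.21 at 48 h. Of the 12, 8 were still listed at 48 h, where Klf4 had none of 8 left.

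Esrrb, an orphan nuclear receptor and target of Nanog, changed in both directions. It had 20 lost, 9 shared and 8 gained regions. Lost regions had folds of 2.56 to 11.4 in 2iL, and 10 of the 20 were still listed at 48 h. Gained regions had folds of 4.52 to 14.5 at 96 h, and 7 of the 8 were already listed at 48 h. One gained region covered the upstream start printed above, where the fold was 3.87 at 48 h and 7.94 at 96 h, and another 11.9 kb from the gene's end had 3.99 and 14.5.

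Tet2, which oxidises methylated cytosine, had 14 lost, 6 shared and 1 gained region. Only 1 of the 14 lost regions was listed at 48 h. The strongest had folds of 14.5 and 14.2 in 2iL and lay inside the gene, 38.4 and 20.3 kb from its nearer end. Klf5 had 13 lost, 6 shared and no gained regions, Nr5a2 had 13, 12 and 1, and Tbx3, a factor of the LIF circuit, had 16, 12 and 3. Prdm14, which restrains FGF signalling and DNA methylation, had 9 lost and 6 shared regions, of which the strongest lost one, 28.3 kb away, had folds of 13.3 (2iL) and 7.33 (48 h).

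Nanog lost 3 regions and kept 6. The lost region 20.6 kb away had a fold of 10.1 in 2iL and was absent at 48 h. A shared one 1.34 kb beyond the gene's end had folds of 5.30, 11.7 and 13.1, and the promoter region, 0.008 kb from the start, had 5.51, 7.32 and 4.74. Nearby, Dppa3, a maternal factor that marks naive cells and germ cells, had the region at its start, with a fold of 3.45, in 2iL only. Regions of the 2iL and 96 h lists with a summit within 1 kb of a start or end were also counted. The 2iL summit was used where 2iL held the region, and peaks listed only at 48 h are not counted. Such a region was in the 2iL list at 16 of the 20 naive genes, in the 48 h list at 15 and in the 96 h list at 13. Spp1 left this set with folds of 11.1 (2iL) and 9.68 (48 h), Tcl1 with 7.85 and 6.03, and Pecam1 with 5.87 and no peak at 48 h.

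General pluripotency genes, which are used in naive and primed cells alike, had 53 lost, 47 shared and 22 gained regions, a lost share of 53.0% and a gained share of 31.9%. Sox2 had 12 lost, 9 shared and 8 gained regions. The region over Sox2 itself had folds of 9.59, 7.54 and 7.55. A gained region 39.8 kb away had a fold of 6.14 at 48 h and 13.3 at 96 h, and a lost region 82.7 kb away had 13.1 in 2iL and 11.8 at 48 h. A shared one 92.9 kb away had 17.7, 13.6 and 5.87. Dppa4, a chromatin-bound factor of early embryos, lost all 5 of its regions, with folds of 6.39 to 7.04, and 1 of them was listed at 48 h. Pou5f1, which encodes OCT4, had 1 lost, 3 shared and 2 gained regions.

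Formative and primed genes had about as many lost as gained regions, 64 and 62, beside 101 shared ones. The lost share was 38.8% and the gained share 38.0%. Genes within the group differed. Pou3f1, an early factor of the exit, had 1 lost, 5 shared and 8 gained regions, and all 8 were already listed at 48 h. The strongest, 25.9 kb away, had a fold of 10.8 at 48 h and 12.9 at 96 h, while its promoter region had 10.3, 9.21 and 8.14. Fgf5, a ligand that marks the formative epiblast, kept 2 regions and gained 2 beyond its end, 6.87 and 16.6 kb away. Those had folds of 17.8 and 13.1 at 48 h and 17.8 and 12.7 at 96 h. Otx2, which redirects OCT4 to new enhancers, gained 6 regions and lost 1, and one 70.7 kb away had 7.79 at 48 h and 19.9 at 96 h.

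Other genes of the formative group had more losses. Foxd3, a forkhead factor needed for the exit, had 12 lost, 6 shared and 4 gained regions, with a fold of 13.4 in 2iL at the lost region 11.7 kb away and of 11.3 at 48 h and 13.3 at 96 h at the gained one 83.2 kb away. Lef1, a transcription factor of WNT signalling, had 14 lost, 13 shared and 5 gained regions. Its strongest lost region, 61.9 kb away, had a fold of 17.6 in 2iL and was absent at 48 h. Over the group, 64.5% (51.3 to 76.3) of gained regions, 40 of 62, were already listed at 48 h, beside 50.2% of all gained regions.

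Neural ectoderm genes had 65 lost, 105 shared and 108 gained regions. The gained share was 50.7% and the lost share 38.2%, with gains outnumbering losses at 13 of 22 genes and the reverse at 5. Of the gained regions, 63, or 58.3% (48.5 to 67.7), were already listed at 48 h. Their median fold, 5.46, was lower than the 6.60 of all gained regions. A region with its summit within 1 kb of a start or end, counted as for the naive genes, was in the 2iL list at 17 genes. The 48 h and 96 h lists each held one at 19.

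Pax6, which drives neural and eye development, had 2 lost, 7 shared and 8 gained regions. The gained region at its start had a fold of 5.51 at 48 h and 4.66 at 96 h. The strongest gained region, 22.6 kb beyond the gene's far end, had 11.9 at 96 h and was not listed at 48 h. A shared region 57.6 kb upstream had folds of 13.0, 4.34 and 3.57 in the 3 lists, and the next one, 56.8 kb away, had 3.36, 6.16 and 8.95. Pax7, a factor of the dorsal neural tube, had 4 lost, 10 shared and 14 gained regions, of which 7 were listed at 48 h, with folds of 3.81 to 11.1. Zeb2, a repressor needed for neural fate, had 7 lost, 4 shared and 12 gained regions. Its strongest gained region had a fold of 18.2 at 48 h and 23.0 at 96 h. The proneural gene Neurog2 lost none and gained 3. Fabp7 had no region in 2iL and 2 at 96 h.

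Axon guidance genes had more gained regions than any other of the 20 groups: 119, beside 91 shared and 74 lost. The gained share was 56.7% and the lost share 44.8%. More were gained than lost at 13 of 20 genes and fewer at 6. Of their gained regions, 53 of 119, 44.5% (35.4 to 53.9), were listed at 48 h, an interval that overlaps that of the neural genes. Efna5, an ephrin ligand that guides growing axons, had 1 lost, 8 shared and 12 gained regions. Plxna2, a semaphorin receptor, had 3, 4 and 12, and its coreceptor Nrp1 had 2, 6 and 11. The strongest gained region at Plxna2, 43.4 kb inside the gene, had a fold of 22.3 at 96 h and was absent at 48 h. At Nrp1 the strongest, 85.7 kb away, had 12.1 at 48 h and 23.0 at 96 h. Robo1, a SLIT receptor, had more losses, with 11 lost, 2 shared and 3 gained regions.

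**Figure D4:**
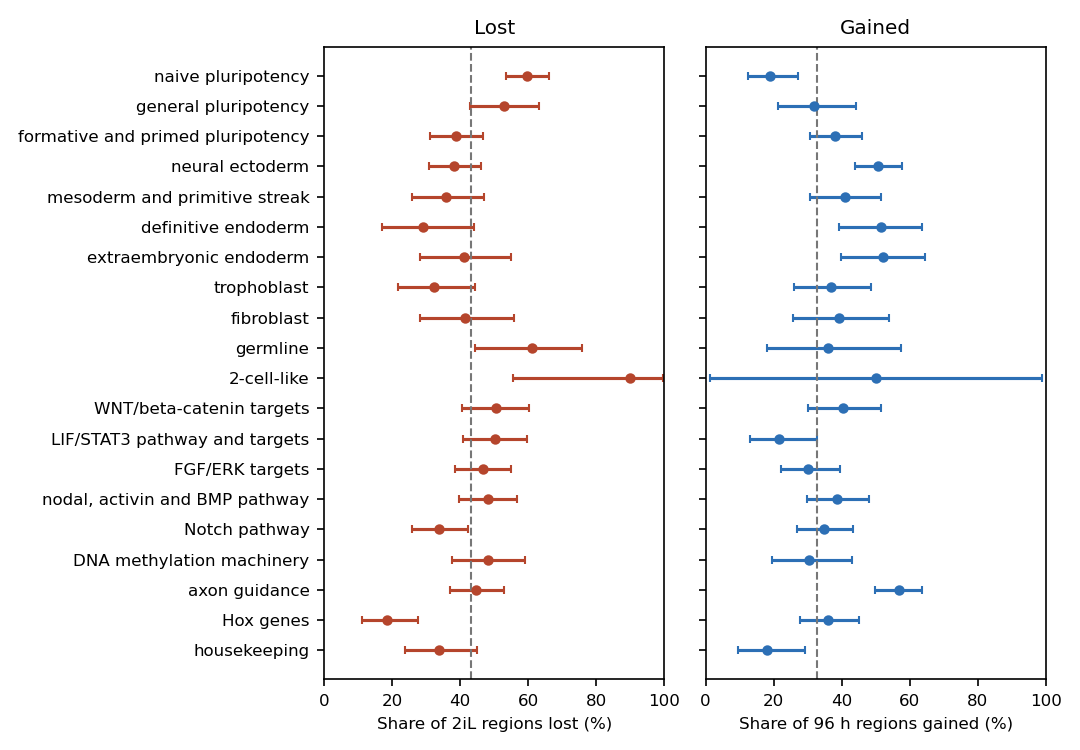
Share of 2iL regions lost (left, percent) and of 96 h regions gained (right, percent) at the genes of 20 groups. Points are shares with exact 95% intervals, and dashed lines are the shares over all regions placed at a gene, 43.2% and 32.8%; naive pluripotency lies right of the line for losses at 59.8%, and axon guidance right of it for gains at 56.7%.

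Endoderm groups also held many gained regions for their size. Definitive endoderm had 14 lost, 34 shared and 36 gained regions, a gained share of 51.4% and a lost share of 29.2%. The extraembryonic endoderm group, which shares Gata4 and Gata6 with it, had 23, 33 and 36, a gained share of 52.2%. Cxcr4, a chemokine receptor, had 2 lost, 2 shared and 8 gained regions, and none of the 8 was listed at 48 h. The strongest of these lay 77.1 kb away at chr1:128668886-128669739 with a fold of 20, while the region at the promoter had folds of 8.80, 8.23 and 9.60. Gata4, an endoderm and heart factor, had 1 lost, 4 shared and 8 gained regions, 5 of them listed at 48 h.

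In the mesoderm group there were 31 lost, 55 shared and 38 gained regions. At Eomes, a primitive streak factor, a region over the start with a fold of 2.71 was listed at 96 h only. Markers of trophoblast had 23 lost, 48 shared and 28 gained regions and those of fibroblasts 22, 31 and 20. Their gained shares were 36.8% and 39.2%, beside 32.8% over all placed regions. In bulk chromatin, a region open in few cells and one weakly open in many cannot be told apart. The trophoblast losses rested on Tfap2c, with 13 of the 23, and without it the lost share went from 32.4% to 20.8%.

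Germline genes lost 25 and gained 9 regions, a lost share of 61%. Prdm1, which specifies germ cells, held 15 of the 25 losses, and 9 of those were still listed at 48 h. Sohlh2, a germ cell transcription factor, had a start region with folds of 16.2 (2iL) and 11.8 (48 h). Genes of the 2-cell-like state, a rare state in ground-state cultures, had 9 lost, 1 shared and 1 gained region. Of the 9, 5 were at Zfp352, and Zscan4c, Zscan4d, Tcstv3 and Duxf3 had 1 each. The last 4 belong to families of near-identical copies, so their reads may be placed wrongly.

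Of the targets of the withdrawn agents, the LIF/STAT3 group, with the receptor Lifr, the kinase Jak1 and the feedback inhibitor Socs3, had 59 lost, 58 shared and 16 gained regions. Its gained share, 21.6%, was under the background of 32.8%, and its lost share was 50.4%. Klf4 and Tfcp2l1 belong to this group and to the naive one. Lifr had 11 lost, 4 shared and 6 gained regions, Jak1 had 8, 3 and 2, and Socs3 had 3, 8 and 3. At Pim1, a kinase gene induced by STAT3, a region over an inner start had a fold of 3.46 in 2iL only.

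For FGF/ERK targets, whose pathway the MEK inhibitor blocks, the lost share was 46.7% and the gained share 30.2%, both near the background. There were 71 lost, 81 shared and 35 gained regions. Spred2, a feedback inhibitor, had 17 lost, 13 shared and 2 gained regions, and Myc had 13, 8 and 2. Among the feedback inhibitors, Dusp6 had 7, 3 and 3, and Spry2 had 6, 7 and 1. WNT/beta-catenin targets, whose pathway CHIR99021 activates, had 54 lost, 53 shared and 36 gained regions, shares of 50.5% and 40.4%. Axin2, a feedback inhibitor of the pathway, had 9 lost, 7 shared and 9 gained regions, so as many left as came.

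The nodal, activin and BMP group had 68 lost, 73 shared and 46 gained regions. Smad3, a transducer of activin, had 12 lost, 4 shared and 10 gained regions. The 48 h list held 4 of the lost and 1 of the gained, beside 32.9% of all lost and 50.2% of all gained regions. Notch genes had 46 lost, 90 shared and 48 gained regions. The Notch target Hes1 had 17 lost, 15 shared and 5 gained regions, while the coactivator Maml3 had 4, 10 and 14. Genes of the DNA methylation machinery had 43 lost, 46 shared and 20 gained. Besides Tet2, Tet1 had 8 lost, 7 shared and 4 gained regions and the de novo methyltransferase Dnmt3a had 4, 8 and 6. Dnmt3b had 1, 8 and 2.

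Hox genes, which pattern the body axis and are silent in stem cells under Polycomb, had 18 lost, 80 shared and 45 gained regions. Their lost share was 18.4%. Gained Hox regions were weak, with a median fold of 3.67, and with only peaks of fold 5 or more the gained share no longer lay above the background. Regions with a summit within 1 kb of a start or end were counted as for the naive genes, without peaks listed only at 48 h. The 2iL list held one at 22 of 39 Hox genes, the 48 h list at 28 and the 96 h list at 30. At Hoxa11 the region over the start had a fold of 3.15 at 48 h and 3.58 at 96 h. Hoxb7 had the strongest such gain, 7.07 at 96 h. Housekeeping genes had 28 lost, 55 shared and 12 gained regions, shares of 33.7% and 17.9%, both below the background.

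Over all genes, 448 had at least 10 lost regions, 112 had at least 10 gained ones, and 451 had at least 5 of each. All regions were lost at 806 genes, and 581 genes had a region at 96 h only. The largest net loss was at Pkp4, a plakophilin of cell junctions, with 31 lost, 4 shared and no gained regions. Its lost regions had folds of 3.31 to 15.6 with a median of 6.82, and 7 of the 31 were listed at 48 h. Of these, 14 followed each other within 57.1 kb inside the gene with no other region between them. Map4k3 followed, with 30 lost, 7 shared and 3 gained regions, then Arid5b with 28, 6 and 2, Rai14 with 26, 7 and 2, and Zfp704 with 26, 10 and 2. Etv6, an ETS repressor, had 24 lost, 8 shared and 1 gained region, and its strongest lost region had folds of 17.9 (2iL) and 5.44 (48 h). At Foxo3, a forkhead factor under control of AKT, 24 regions were lost, 5 shared and 2 gained, and 14 of the lost lay side by side over 75.6 kb.

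The largest net gain was at Fgfr2, a receptor for FGF ligands, with 20 gained, 3 shared and 3 lost regions. Its gained regions had folds of 3.24 to 17.6 with a median of 7.93, and 9 of the 20 were already listed at 48 h. Of 8 gained regions inside the gene, 6 were listed at 48 h. Of 7 gained regions beyond its far end at chr7:130162451, with folds of 5.55 to 15 at 96 h, none was listed at 48 h. The region at the promoter, 0.479 kb from the start, had folds of 12.9, 9.83 and 11. Myo16, a brain myosin, had 15 gained, 6 shared and 1 lost region, and its strongest had 10 at 48 h and 23.8 at 96 h. Rbfox3, which encodes the neuronal splicing factor NeuN, had 18 gained, 7 shared and 4 lost regions. Trabd2b, an inhibitor of WNT ligands, had 17, 9 and 3, and Lmx1b, a factor of dorsal neurons, had 15, 13 and 3.

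Regions of all 3 classes came in runs. A run is a series of regions of the same class that follow each other along a chromosome with no region of another class between them. There were 868 runs of at least 5 lost regions, with 5306 regions or 13.0% of those lost, and 331 of at least 5 gained regions, with 1993 or 7.2%. Shared regions had 1235 such runs, with 7584 regions or 15.2%. The longest run of losses had 16 regions over 219 kb from Ppp4r2 to Pdzrn3, with 3 listed at 48 h. Another had 15 over 260 kb across the zinc finger genes Zfp990, Gm13212 and Zfp980, where 10 were still listed at 48 h. That locus holds near-identical gene copies, so reads may be shared between them. The longest runs of gains had 13 regions, over 173 kb at Fgfr2 and over 417 kb from Tapt1 to Ldb2. A run of 12 gained regions over 148 kb lay between Rbm19 and Lhx5, a factor of the forebrain, and 10 of these were listed at 48 h.

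The strongest lost region lay in Gm31714, with folds of 43.5 (2iL) and 37.2 (48 h). Next came one 0.162 kb from Zfp640, with 40.8 and 20.3, and one in Scmh1, a Polycomb gene, with 31.8 and 12.9. Of the 8 strongest lost regions, 6 were still listed at 48 h, and those in Ahcyl2 and Rnf168, with folds of 28.9 and 27.6, were not. All 8 of the strongest gained regions were already listed at 48 h. Their folds at 96 h were 28.8 to 30.5. The region nearest Kcnj2 had 6.31 at 48 h and 29.2 at 96 h, the one nearest H1f10 had 5.93 and 28.9, and the one in Ryr2, a calcium channel, had 13.2 and 29.0.

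Annotated gene starts were then read in 32851 windows of 300 bases, 250 before a start and 50 after it, from 27025 RefSeq genes. Of the 16302 windows touched by a 2iL peak, 911, or 5.59%, were touched in that list only, and of the 16479 touched at 96 h, 1088, or 6.60%, at 96 h only. Both shares are below the 45.0% and 35.7% of all regions. Starts in both lists were rich in CpG, the dinucleotide of CpG islands, with a median of 21 per window, against 5 in 2iL-only, 6 in 96 h-only and 3 in untouched windows. In windows with 0 to 2 CpG, 42.2% of those in the 2iL list were lost and 40.2% of those in the 96 h list were gained. In windows with 21 or more, 0.279% were lost and 1.42% gained. Starts touched at 96 h only belonged to protein-coding genes in 62.2% (59.3 to 65.1) of cases, those in 2iL only in 40.8% (37.6 to 44.1) and those in both in 84.1%. The 48 h list held 47.0% (43.7 to 50.3) of the 2iL-only and 70.1% (67.3 to 72.8) of the 96 h-only starts.

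Of 19 motifs searched as fixed letters on both strands, the KLF core GGGTGTGG was in 8.01% (6.33 to 9.97) of 2iL-only windows, 73 of 911. It was in 2.94% (2.02 to 4.13) of 96 h-only windows, in 3.72% of those in both lists, in 3.18% of untouched ones and in 3.56% of all windows. The difference was seen at several CpG counts: with 3 to 5 CpG the share was 9.03% in 2iL-only and 3.56% in 96 h-only windows, and with 6 to 10 it was 7.67% and 1.66%. The CTCF core AGGGGGC was in 14.2% (12.1 to 16.4) of 96 h-only windows and in 7.14% (5.55 to 9.0) of 2iL-only windows. It was in 17.4% of those in both lists, 3.84% of untouched and 10.6% of all windows. With 6 to 10 CpG its shares were 14.2% at 96 h only and 8.33% in 2iL only, and with 0 to 2 CpG they were 7.41% and 7.39%. A match is a match of letters and no measure of binding, and these 2 motifs were singled out after the shares were seen. Windows of neighbouring starts can overlap, so the same peak and core can count more than once. The 1088 windows at 96 h only came from 973 genes and the 911 in 2iL only from 845. The intervals treat windows as independent.

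**Figure D5:**
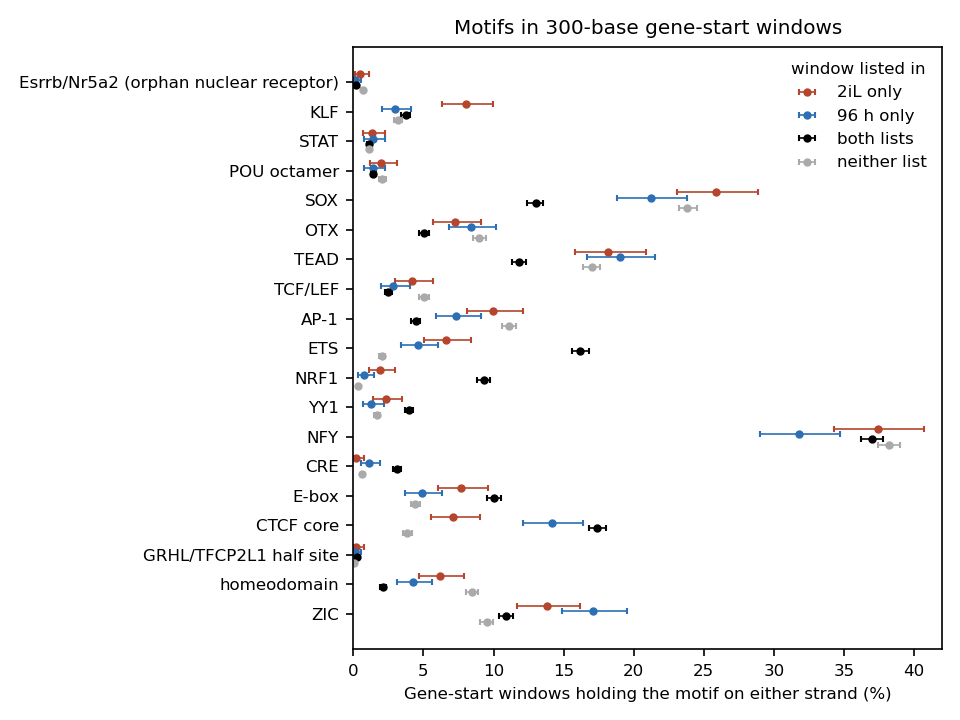
Share of 300-base gene-start windows that hold each of 19 motifs on either strand (horizontal axis, percent), for windows touched by a peak in 2iL only, at 96 h only, in both lists or in neither. Points are shares with exact 95% intervals, which treat overlapping windows as independent. The KLF core stands at 8.01% in 2iL-only windows against 2.94% in 96 h-only ones, and the CTCF core at 7.14% and 14.2%.

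Among members of the 20 groups, 248 start windows were read: 180 were touched in both lists, 7 in 2iL only, 11 at 96 h only and 50 in neither. The 7 were at Spp1, Tcl1, Sohlh2, Olig3 and Dll1 and at starts inside Nr5a2 and Pim1. None of the 7 holds the KLF core, though Klf17 and Lif, outside that set, do. The 11 were at Pax6 and Tdrd1, with 2 starts each, and at Fabp7, Esrrb, Sema3a, Hoxa11, Eomes, Bmp4 and Sall2. None of the 11 holds the CTCF core, while the 2iL-only windows of Sohlh2, Tcl1 and Pim1 do. Sema3a, a repulsive axon guide, had a fold of 6.83 at 96 h at a start inside the gene. Bmp4, a BMP ligand, had 3.77 at 48 h and 3.18 at 96 h.

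A pair of microRNA clusters mark the same transition, the miR-290 cluster of naive cells and the miR-302 cluster of the epiblast. Their main products are close in sequence, which is why they are shown, with the seed (bases 2 to 8) in capitals, from RefSeq on GRCm38.p6.
mmu-miR-291a-3p: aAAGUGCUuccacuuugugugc
mmu-miR-294-3p: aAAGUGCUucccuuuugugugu
mmu-miR-295-3p: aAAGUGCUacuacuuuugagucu
mmu-miR-302b-3p: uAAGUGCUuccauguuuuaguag
mmu-miR-302d-3p: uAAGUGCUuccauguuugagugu
These 5 share the seed AAGUGCU. Around miR-290, on chromosome 7, 4 regions were shared and 1 lost, and the lost one, within the cluster, was weak, with a fold of 2.47 in 2iL. The shared region 0.668 kb before the cluster had folds of 5.46, 5.0 and 8.54 in 2iL, at 48 h and at 96 h. Around miR-302, on chromosome 3, 3 regions were shared and 3 gained, and none of the gained ones was listed at 48 h. Their folds at 96 h were 6.74, 3.70 and 4.65. The shared region over the start of the miR-302 cluster had folds of 12.9, 12.5 and 7.17, and one 6.99 kb beyond the cluster had 21.2, 20.5 and 20.5.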

How the data were processed

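ATAC-seq peak lists of E14 cells in 2iL and at 48 h and 96 h without it were used, 1 deposited list per group of 2 samples. The labels name the same list for samples A and B and do not say whether these were separate cultures. Build mm10 and the tools bcl2fastq 2.20.0.422, BWA, SAMtools and Picard are named in the submitters' processing notes. Not given in the sources used here are the peak caller and its thresholds, whether reads were shifted for the transposase, and whether duplicate or mitochondrial reads were taken out; each could change which weak peaks are listed.

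Each line of a list holds an interval and a summit with values by the authors. Their deposited fold enrichment is a ratio on a linear scale. Their deposited p-values are given as −log10 p. A deposited score and q-value went unused. Where an interval has several summits, the one with the highest −log10 p stood for it. These values only describe, rank or filter peaks within their own list. Lists hold no read counts, so depth was estimated from the fold and p values of each summit. This gave whole tag counts within 0.02 for 100% of the summits solved. Those solved were 87.7% of summits in 2iL, 85.4% at 48 h and 83.1% at 96 h.

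Intervals were merged where they overlapped by at least 1 bp, with Python 3.11.15, numpy 2.4.6, scipy 1.17.1 and pandas 2.3.3. Genes came from a RefSeq table of GRCm38.p6, which is mm10. It lacks strand and exons, so a region inside a gene could not be called exonic, intronic or UTR. Each region was placed with 1 protein-coding gene, the one whose start or end lay closest to its summit, up to 100 kb away. All 311 entries of 20 gene groups matched. Start windows and sequences came from RefSeq tables of the same build. The counting was tested on simulated data.

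The regions and gene groups were chosen with earlier results of these data known. Named were, per group, the 6 genes with the most lost and gained regions and those whose peaks within 1 kb of a start or end changed; the 10 genes with the largest net loss and net gain; the 8 strongest lost and gained regions; and the 5 longest runs of each class, from which the text gives a part. The values of 1 neural gene are not reported here, and its regions are counted in its group. Klf4, Prdm14, Nanog, Fgf5, Otx2, Pou5f1, Dnmt3b, Neurog2, Klf17, Lif, Bdnf, the microRNA clusters and the KLF and CTCF motifs were added after values were seen. Alternatives were lists of equal length, stronger peaks, a minimum fold, other overlaps and gaps, and other gene assignments. With 1 list per group, no test between conditions was made and no p-value is given.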

Additional observations from a re-analysis of the deposited data

How the results depend on the processing

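No paired analysis was possible because each group has 1 list for its 2 samples, and no sample could be left out for the same reason. Of the alternatives, 304 of the 358 values at gene groups and 18 of the 42 other shares stayed within their counting interval. Counts at named genes stayed within 1.5 times in 1538 cases and moved further in 562. Set against the background of the same setting, group shares kept their side in 282 of 318 cases and crossed it in 36. Those crossings include gains at Hox genes in 3 alternatives, losses at extraembryonic endoderm genes in 4 and gains at naive genes in 2. With lists of equal length, 40.0% were lost and 40.0% gained, the 48 h list held 30.8% of lost and 46.0% of gained regions, 28.0% of shared regions lay within 1 kb of a gene start or end, and the median width ratio was 1.00. With the stronger 50% of each list, 41.6% were lost and 31.7% gained, the 48 h list held 30.7% and 55.2%, and 4.75% of lost, 11.5% of gained and 41.6% of shared regions lay within 1 kb. With peaks of fold 5 or more, 35.2% were gained, the 48 h list held 31.2% of lost and 48.4% of gained regions, and 5.65% of gained and 28.2% of shared regions lay within 1 kb. With gaps of up to 200 bp counted as shared, 35.1% were gained, the 48 h list held 33.5% of lost regions, and 5.85% of gained and 3.83% of lost regions lay within 1 kb. The gained share at naive genes was 28.6% with fold 5 or more and 31.0% with the stronger 50% of each list, the latter above its background of 29.3%. Without regions over 20 kb from a gene, lost shares were 29.5% at formative and 27.3% at neural genes. An alternative added after seeing the data took the stronger 50% of a list against the whole of the other: 27.0% were lost and 15.1% gained, with lost shares of 45.5% at naive, 31.9% at general, 25.0% at formative and 26.3% at neural genes (25.2% at all genes) and gained shares of 12.1% at general, 24.4% at formative and 31.4% at neural genes (13.1% at all genes). The causes were not tested. Losses at naive genes and gains at neural and axon guidance genes stayed above the background of the same setting in all 8 alternatives. The same held for losses at general pluripotency, germline and 2-cell-like genes. It also held for gains at formative, definitive and extraembryonic endoderm, fibroblast and WNT genes. Of 40 group shares, 17 kept their side in every alternative. The lists end at different strengths, and the part of this and of depth in the movements was not tested.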

Other observations

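Losses and gains were spread over all chromosomes. The lost share ran from 40.0% (38.1 to 41.9) on chromosome 19 to 49.9% (48.1 to 51.8) on chromosome 18 among autosomes and was 40.2% (37.8 to 42.6) on the X. The gained share ran from 31.0% (29.5 to 32.6) on chromosome 17 to 39.6% (37.9 to 41.3) on chromosome 12 and was 35.8% (33.5 to 38.3) on the X. The Y chromosome had 17 regions in 2iL, of which 3 were lost.

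Of the shared regions, 2562 were missing from the list at 48 h. They were weak in both lists that held them, with a median fold of 6.77 against 10.2 for the other shared regions in 2iL, and of 6.34 against 11.1 at 96 h.

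Among other microRNA genes, the regions within 10 kb of the miR-200 genes were all shared, with 3 at Mir200c and Mir141 and 2 at Mir200a, Mir200b and Mir429. Of the genes for the neural miR-9, Mir9-3 had 4 shared and 4 gained regions, Mir9-1 had 2 shared and 1 gained, and Mir9-2 had 3 shared and 1 lost. In the let-7 family, Mirlet7i had 2 shared and 2 gained regions. The neighbours Mirlet7a-1, Mirlet7f-1 and Mirlet7d each had 2 shared and 1 gained, and Mirlet7d also had 1 lost. Mirlet7g had 1 shared and 1 lost, Mirlet7b had 4 and Mirlet7e 3 shared regions only, and Mirlet7c-1 had none.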
